A study of Rattus norvegicus with 12 samples.

Results

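The comparison described here is the effect of angiotensin II (AngII) on the left ventricle of rats kept on a low sodium diet. It takes the arrays whose titles give low sodium with AngII and those whose titles give low sodium without it, which are 6 of the 12 arrays of the study. All rats were male Sprague-Dawley rats fed 60% fructose for 8 weeks, a diet used to model metabolic syndrome, and the study set salt restriction against normal salt in that model. The low sodium chow held less than 0.01% NaCl, and the uninfused group (3 arrays, called low sodium below) had that chow alone. The infused group (3 arrays, called low sodium with AngII) also received AngII under the skin at 200 ng per kg per minute for the last 4 of the 8 weeks. The normal sodium groups (0.64% NaCl, 3 arrays with and 3 without AngII) ate the same fructose. Neither low sodium group therefore stands for an animal on ordinary chow, and no array of fructose-free rats is used here. The labels number the replicates but do not say how many animals each came from, so that p-values measure the spread between these samples.

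AngII is the active peptide of the renin-angiotensin system. Renin cuts angiotensinogen, the converting enzyme Ace turns the product into AngII, and AngII acts mainly through the type 1 receptor to constrict vessels, drive aldosterone release and retain sodium. A diet poor in sodium raises renin and AngII on its own, so an infusion on that diet is added to a system that is already active. In the heart, sustained AngII is known for cardiomyocyte growth, the return of fetal genes such as the natriuretic peptides, matrix deposition and oxidant production by NADPH oxidase. Adult heart muscle draws most of its energy from fatty acid oxidation in mitochondria.

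Levels are given as the log2 signal of a probe relative to the 75th percentile of its array, and differences as low sodium with AngII minus low sodium on that log2 scale, ± limma standard error. The 75th percentile lay at 1399 to 1988 intensity units and the local background at 20 to 29.5, with no saturated spots. Across probes, low sodium arrays correlated with infused arrays at 0.989 to 0.993, against 0.991 to 0.992 among the low sodium arrays and 0.987 to 0.992 among the infused ones. The 3 arrays of a group lay on 3 slides, 1 array of every group per slide, and slide and replicate number are therefore the same factor. A group kept 1 position on the slide throughout, and position and group cannot be told apart. Lists of replicate values run in the order 1, 2, 3.

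No gene was called after adjustment. Of 20020 probes tested, 0 (0%) passed an adjusted p of 0.05 (limma, Benjamini-Hochberg, smallest adjusted p = 1.00), while 342 (1.71%) had an unadjusted p under 0.05, 176 with higher and 166 with lower signal under AngII. Among the 11211 named genes, 200 (1.78%) had an unadjusted p under 0.05. The 3 infused arrays lay entirely above the 3 low sodium arrays for 388 genes (3.46%) and entirely below them for 375 (3.34%). These shares are the comparison for every list member named below for not overlapping. Differences were small for nearly all genes. The median over all genes was -0.01, 51 genes (0.455%) differed by more than 2-fold either way, and the 95% interval lay within 2-fold either way for 17399 probes. Each gene named below had an adjusted p of 1.00, so that its difference and error are given as measurements and not as calls.

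**Figure D1:**
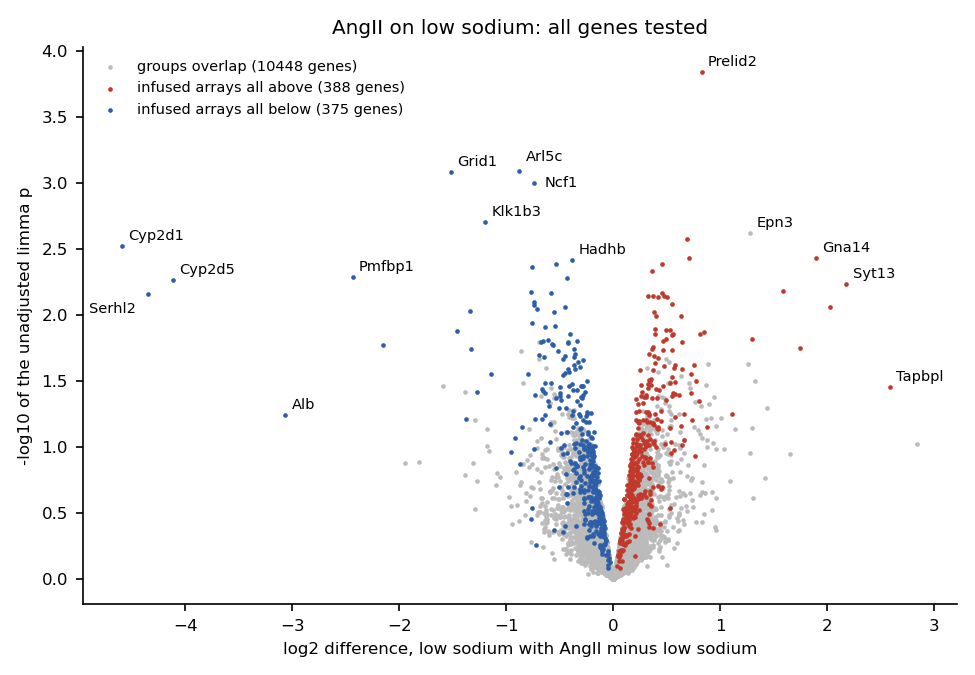
Each point is 1 of 11211 genes, with the log2 difference (low sodium with AngII minus low sodium) on the horizontal axis and -log10 of the unadjusted limma p on the vertical axis. Red points (388 genes) have all infused arrays above all low sodium arrays, blue points (375 genes) have them all below, and Serhl2, Cyp2d1 and Cyp2d5 stand at the far left. Fitted differences are drawn also for genes with arrays that were not well above background.

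The largest differences belonged to a group of neighbouring genes on chromosome 7. Serhl2, a serine hydrolase-like protein, stood at 1.17, 1.08 and 1.33 on the low sodium arrays and at -3.12, -3.39 and -2.95 on the infused arrays. All infused arrays lay far below all low sodium arrays, and the difference was -4.35 ± 1.30. Cyp2d1, a drug-metabolising cytochrome P450, stood at -4.05, -4.54 and -4.53 without AngII and at -8.85, -8.79 and -9.25 with it. The infused values were not well above background on any array, which makes Cyp2d1 at least 5.52-fold lower. This bound and the others below set the mean of the group above background against the lowest signal that counted as well above background on the arrays of the dim group. Its close paralog Cyp2d5 stood at -3.93, -4.43 and -4.61 against -7.71, -8.58 and -9.03 and, with no infused array well above background, was at least 5.71-fold lower. These bounds and those below hold for the main processing only. Over the alternatives of processing and array choice given further below, the weakest differences were -1.28 for Cyp2d1 and -1.19 for Cyp2d5.

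The same genes also varied within the normal sodium groups, where infusion does not separate them. Serhl2 stood at -2.82, 2.05 and 1.01 on normal sodium and at -3.64, 1.00 and -3.40 on normal sodium with AngII. Cyp2d1 and Cyp2d5 were high and low on the same arrays as Serhl2: high on all low sodium arrays, on normal sodium replicates 2 and 3 and on infused normal sodium replicate 2, and low on the other 6 arrays. Serhl2, Cyp2d1 and Cyp2d5 lie near each other in the RefSeq gene order of assembly GRCr8. The 7 other genes of that stretch that were measured differed by -0.18 to 0.30. On normal sodium both levels thus occurred within 1 group, with and without AngII. No genotypes were used here, and for these genes the infusion and a difference between the animals of the groups cannot be told apart. The spread on normal sodium enters the test, and with the 6 low sodium arrays alone in the fit Serhl2, well above background on all 12 arrays, had an adjusted p of 0.00101 (limma). That fit also called Cyp2d1, but Cyp2d1 and Cyp2d5 passed the filter on brightness only through uninfused groups, where they were higher, so a call on them adds no support.

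Genes of the tissue kallikrein family, serine proteases of which Klk1 releases kinins from kininogen, also stood lower. Klk1b3 stood at -4.57, -4.84 and -4.33 on low sodium and at -6.35, -5.53 and -5.45 with AngII, a difference of -1.19 ± 0.29. Klk1, the kallikrein that gives the family its name, stood at -4.32, -4.39 and -4.33 against -4.85, -5.03 and -4.77 and differed by -0.54 ± 0.15. The groups overlapped for neither gene. Their neighbours Klk1c3 (-0.74 ± 0.23) and Klk1c2 (-0.67 ± 0.23), chosen after their values were seen, had non-overlapping groups as well, while Klk1c8 (-0.30 ± 0.24), of the same stretch, overlapped. On normal sodium the difference of Klk1b3 was 0.09 and that of Klk1 was 0.07, and the interaction of Klk1b3, its low sodium minus its normal sodium difference, was -1.29 ± 0.41. The kallikrein genes are near-identical copies beside each other on chromosome 1, so 1 transcript may be read by several of these probes. With normexp background correction the difference of Klk1b3 was -0.46 and that of Klk1 was -0.20. That correction added an offset of 50 intensity units, which by itself shrinks the log2 differences of dim probes.

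**Figure D2:**
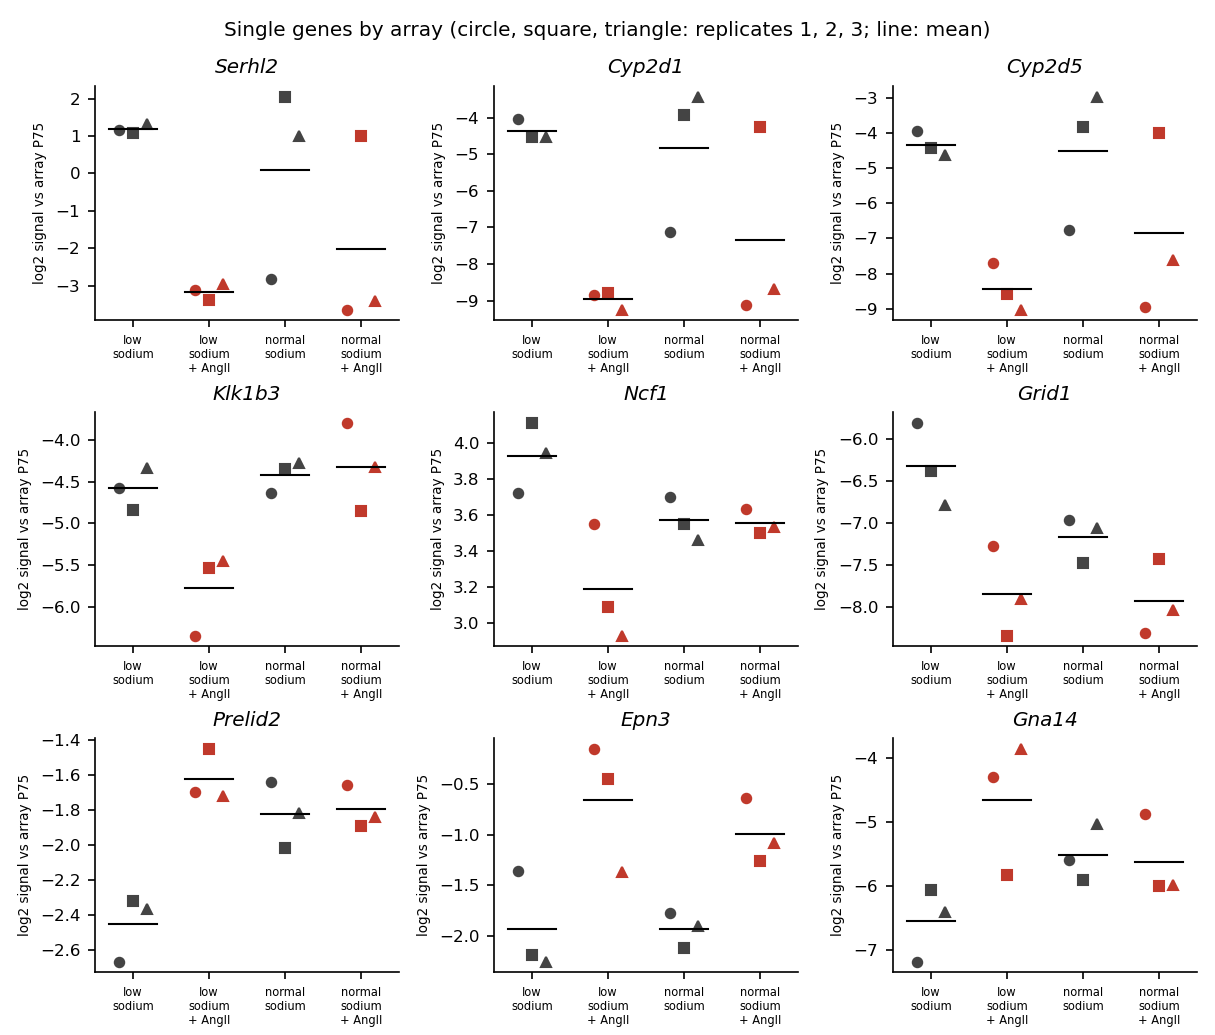
Each panel shows 1 gene, with log2 signal relative to the 75th percentile of its array on the vertical axis and the 4 groups on the horizontal axis. Each symbol is 1 array (circle, square and triangle for replicates 1, 2 and 3; red with AngII, grey without) and the line is the group mean. Serhl2, Cyp2d1 and Cyp2d5 split the normal sodium arrays as well, while Prelid2 has all low sodium arrays below the other 9 arrays.

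Among the other genes that stood lower, Ncf1, the p47phox organiser subunit of the phagocyte NADPH oxidase, was at 3.72, 4.11 and 3.94 on low sodium. With AngII it was at 3.55, 3.09 and 2.93, below every low sodium array, a difference of -0.74 ± 0.16. The difference was -0.02 on normal sodium (interaction -0.72 ± 0.23). The Ncf1 signal lay far above the defining macrophage markers, which reached at most -1.35 on the low sodium and infused arrays. Whether the probe reads Ncf1 alone was not tested. Arl5c, a small GTPase of the Arf-like family, differed by -0.88 ± 0.19, from -4.59, -5.22 and -4.92 to -5.91, -5.62 and -5.83. Its groups did not overlap either, and it was -0.32 with normexp correction. Sytl3, a synaptotagmin-like protein that binds Rab27, differed by -0.77 ± 0.23 without overlap and by -0.15 with normexp correction. Grid1, a glutamate receptor subunit of the delta type, was not well above background on any infused array and stood at least 1.43-fold lower. Pmfbp1, known from sperm, was at least 2.02-fold lower by the same rule, Vom2r73, a vomeronasal receptor gene, at least 1.91-fold and Fcrl6, an Fc receptor-like protein of lymphocytes, at least 1.41-fold. Over the alternatives the weakest differences of Grid1, Pmfbp1, Vom2r73 and Fcrl6 were -0.13, -0.44, -0.34 and -0.20. With no infused array well above background, these genes passed the filter on brightness only through other groups. Their lower infused values therefore add no support.

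Alb, the plasma protein albumin, stood at -4.17, -5.63 and -5.08 on low sodium and at -6.58, -8.49 and -8.99 with AngII, of which 1 infused array was well above background. The groups did not overlap, yet the within-group spread left a standard error of 1.44 on a difference of -3.06, and normexp correction gave -0.77. Alb passed the filter on brightness only through groups other than the infused one, so its lower infused values add no support. Kctd8, a partner of GABA-B receptors (-0.76 ± 0.21), and Adhfe1, a mitochondrial hydroxyacid-oxoacid transhydrogenase (-0.43 ± 0.12), had non-overlapping groups too.

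The gene with the smallest p was Prelid2, a member of a family of lipid transfer proteins of the mitochondrial intermembrane space. It stood at -2.67, -2.32 and -2.37 on low sodium and at -1.70, -1.45 and -1.72 with AngII, which is higher on every infused array (0.83 ± 0.14). The 3 tested probes of Prelid2 gave differences from 0.21 to 0.83, the largest from the brightest probe. Epn3, an epsin that acts in clathrin-mediated endocytosis, stood at -1.36, -2.19 and -2.26 against -0.15, -0.45 and -1.37. The groups overlapped at 1 array each, the difference was 1.28 ± 0.32, and a dimmer probe gave 0.25.

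Gna14, an alpha subunit of the Gq class through which the AngII type 1 receptor signals, stood at -7.18, -6.06 and -6.41 on low sodium, where 2 arrays were well above background. With AngII it stood at -4.29, -5.83 and -3.85, all above the uninfused arrays (1.89 ± 0.51). On normal sodium it differed by -0.11, and normexp correction reduced the low sodium difference to 0.85. Gna14 was not well above background on every low sodium array and passed the filter on brightness only through other groups. Its higher infused values therefore add no support. Metrnl, a secreted factor of muscle and fat, differed by 0.46 ± 0.13 and Cp, the copper-carrying ferroxidase ceruloplasmin, by 0.46 ± 0.14. Both had non-overlapping groups, and both differences were below 0 on normal sodium (-0.21 and -0.14). Ccdc157, a coiled-coil protein, differed in sign between the diets, with 0.69 ± 0.18 on low sodium against -0.59 on normal sodium (interaction 1.28 ± 0.25). Psmd9, an assembly chaperone of the proteasome, stood at 0.64, 0.70 and 0.57 against 1.02, 1.03 and 0.98 (0.38 ± 0.11). Nxnl2, a nucleoredoxin-like protein (0.71 ± 0.19), Triqk (0.48 ± 0.14) and Zfp512b, a zinc finger protein (0.37 ± 0.10), were also higher on every infused array.

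Several dim genes had large differences with wide errors. Tapbpl, the tapasin-like editor of MHC class I peptides, stood at -4.44, -6.87 and -6.60 against -3.30, -3.47 and -3.37 (2.59 ± 1.07). Syt13, a synaptotagmin (2.18 ± 0.63), Chad, the cartilage matrix protein chondroadherin (2.03 ± 0.63), Mbp, myelin basic protein (1.75 ± 0.62), and Itgb6, the integrin chain that with alpha-v activates latent TGF-beta (1.59 ± 0.47), also had all infused arrays above all uninfused ones. So had Adcy10, the soluble adenylyl cyclase, at -7.04, -6.70 and -7.35 against -5.92, -5.75 and -5.52 (1.30 ± 0.45). Syt13, Itgb6 and Adcy10 were well above background on 1 of the 3 low sodium arrays, and normexp correction gave 0.47, 0.61 and 0.44 for them. They thus passed the filter on brightness only through other groups, and their higher infused values add no support.

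Genes of fatty acid uptake and oxidation stood slightly lower with AngII, nearly all of them. Of 42 tested members of the list, 38 had a difference below 0, against 6085 of 11211 over all genes, and the median was -0.20 against -0.01. Of these, 13 had all infused arrays below all low sodium arrays (3.34% of all genes did) and 20 were lower on each of the 3 slides (8.97% of all genes). An unadjusted p under 0.05 was reached by 4 members (0.856% of all genes in that direction), and none passed the adjusted test. Within slides 1, 2 and 3 the medians were -0.09, -0.24 and -0.16, against 0.06, -0.01 and -0.11 over all genes. On normal sodium the median of the same 42 genes was 0.00, with 21 above 0. In bulk tissue, fewer cells of a type and less RNA per cell cannot be told apart.

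The members span the pathway. At entry, Cd36, the fatty acid translocase of the membrane, stood at 5.62, 5.75 and 5.62 against 5.56, 5.48 and 5.38 (-0.19 ± 0.14). Inside mitochondria, Acadm, the medium-chain acyl-CoA dehydrogenase of the first oxidation step, differed by -0.18 ± 0.12. Hadhb, the thiolase chain of the trifunctional protein that finishes each cycle on long chains, stood at 3.66, 3.59 and 3.79 without and at 3.37, 3.27 and 3.25 with AngII. Every infused array was lower, and its difference of -0.38 ± 0.10 had the smallest p of the list. Enzymes for unsaturated chains were lower as well without overlap: Ech1, Eci1, Eci2 and Decr1 differed by -0.29, -0.28, -0.13 and -0.35. Crat, which moves acetyl groups between CoA and carnitine, stood at 6.35, 6.47 and 6.19 against 6.04, 5.97 and 6.03 (-0.33 ± 0.12). Acaa2, the other mitochondrial thiolase, differed by -0.55 ± 0.23 with overlapping groups.

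The remaining members without overlap were Etfdh, which passes the electrons to ubiquinone (-0.16), Mlycd, which clears malonyl-CoA (-0.15), Plin5, which coats lipid droplets at mitochondria (-0.30), and the PPAR-responsive genes Angptl4 and Acot1. Angptl4, an inhibitor of lipoprotein lipase, stood at 0.64, 1.35 and 0.77 against 0.10, -0.28 and 0.63, and its standard error of 0.79 was as large as its difference of -0.77. Acot1, a cytosolic acyl-CoA thioesterase, stood at -1.18, -1.26 and -0.67 against -1.65, -2.10 and -1.59 (-0.74 ± 0.42). A PPAR-RXR motif (AGGNCA repeated after any 1 base, on either strand) was in 0 of the 32 members' RefSeq promoter windows, and in 0.412% of 27457 promoters, with windows that run from upstream of a gene's start to just inside it. That count says only that these letters are not in those windows.

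**Figure D3:**
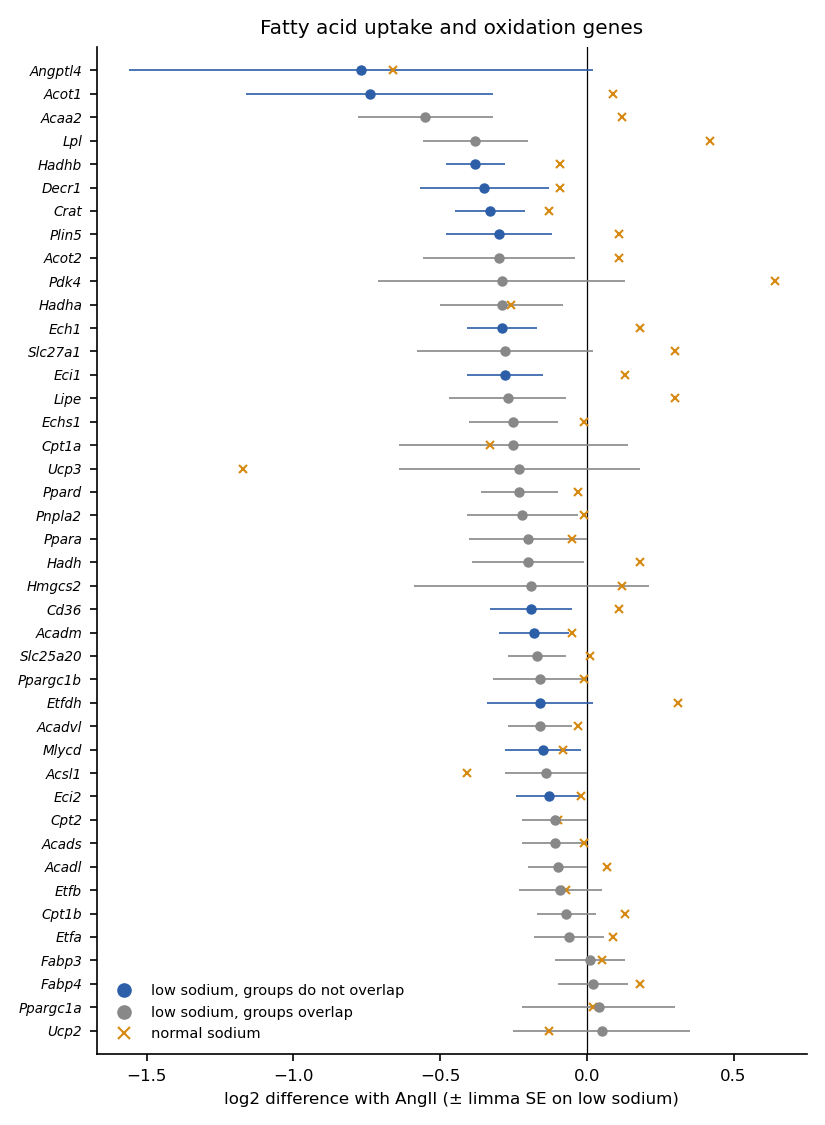
Each row is 1 of the 42 tested fatty acid uptake and oxidation genes and the horizontal axis is the log2 difference with AngII. Circles with bars are the low sodium difference ± limma standard error (blue where the groups do not overlap, 13 genes) and crosses are the normal sodium difference: 38 circles lie left of 0, while crosses lie on both sides.

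Other mitochondrial fuel pathways leaned the same way by smaller amounts. Of the branched-chain amino acid enzymes, 12 of 16 were below 0 (median -0.15), with 3 non-overlapping (3.34% of all genes). Ivd, the isovaleryl-CoA dehydrogenase of leucine breakdown, stood at 4.26, 4.16 and 4.27 against 3.90, 3.78 and 3.94 (-0.36 ± 0.13), and Bcat2, the mitochondrial aminotransferase, differed by -0.16 ± 0.14. Hibch, a hydrolase of valine breakdown, had non-overlapping groups at a difference of only -0.11 ± 0.12. In the citric acid cycle and ketone list 18 of 22 were below 0 (median -0.08). Acat1, the mitochondrial thiolase of ketone metabolism (-0.18 ± 0.10), and Suclg2, a subunit of succinyl-CoA ligase (-0.17 ± 0.14), were lower on every infused array.

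The respiratory chain stood near the level of all genes: medians were -0.04 over 32 complex I subunits, -0.03 over 9 complex III subunits, 0.00 over 15 complex IV subunits and 0.02 over 16 ATP synthase subunits. Glycolysis had 20 of 28 members below 0, with a median of -0.03. Within it Eno1, the widely expressed enolase, was the 1 member with an unadjusted p under 0.05 and stood higher on every infused array, at 4.90, 4.86 and 4.90 against 5.55, 5.34 and 4.96 (0.39 ± 0.15). Pfkm, the muscle phosphofructokinase, was lower without overlap (-0.14 ± 0.09). Over all genes 1.78% had an unadjusted p under 0.05 (limma), 3.46% were higher without overlap and 3.34% lower. Cytosolic ribosomal proteins had 56 of 77 members above 0, yet with a median of only 0.03 (-0.15 on normal sodium), and mitochondrial ribosomal proteins had 33 of 66 above 0.

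Interferon-stimulated genes had the widest spread between slides of the lists drawn by slide. Of 35 tested members, 33 were below 0 and the median was -0.37. Slides 1 and 2 carried that direction, with medians of -0.55 and -0.85 and with 33 and 34 members below 0. Slide 3 went the other way, with a median of 0.40 and 29 members above 0. By array, the median member stood 0.16 and 0.37 above its mean over the 12 arrays on low sodium replicates 1 and 2 and was -0.28 on replicate 3, against -0.39, -0.35 and 0.03 with AngII. The groups therefore overlapped for 33 of the 35 genes, and without replicate 3 (low sodium and infused alike) the list median was -0.59, against -0.09 without replicate 2.

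The exceptions without overlap were Ifi35, an interferon-induced leucine zipper protein, at -1.09, -0.72 and -1.13 against -1.39, -1.59 and -1.58 (-0.54 ± 0.18), and Ifi47, an interferon-induced GTPase (-0.61 ± 0.27). Irf7, the transcription factor that amplifies the type I interferon response, stood at 1.92, 2.12 and 0.99 on low sodium and at 0.88, 1.02 and 1.11 with AngII. Low sodium replicate 3 lay among the infused arrays, and the difference was -0.67 ± 0.29. Usp18, which removes the ubiquitin-like Isg15 and dampens interferon signalling, differed by -0.69 ± 0.24 with overlap. On normal sodium the list median was 0.41, with 29 of 35 above 0, Irf7 differed by 1.05 (interaction -1.72 ± 0.41), and the interaction had an unadjusted p under 0.05 for 12 members against 5.51% of all genes. No interaction passed adjustment (adjusted p = 0.857 for Irf7).

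The promoters show what these genes share in sequence. The core of the interferon-stimulated response element (GAAA, any 2 bases, GAAA, on either strand), bound by interferon regulatory factors, was in 16 of the 27 members' promoter windows (59.3%), against 3.77% of 27457 rat promoters of the same length and 3.03% of the 9196 promoters of tested genes. The windows of Irf7 (GRCr8 chr1:205799974-205800273, minus strand), Ifit3 (chr1:241527076-241527375, plus strand) and Oas1a (chr12:41330216-41330515, plus strand) are given from RefSeq, 5′ to 3′ along the gene, with the matches in capitals. Irf7 is shown because it had the largest interaction of the interferon genes named here, and Ifit3 and Oas1a, chosen after their values were seen, as antiviral effectors that carry 1 match and 2 overlapping matches.
Irf7: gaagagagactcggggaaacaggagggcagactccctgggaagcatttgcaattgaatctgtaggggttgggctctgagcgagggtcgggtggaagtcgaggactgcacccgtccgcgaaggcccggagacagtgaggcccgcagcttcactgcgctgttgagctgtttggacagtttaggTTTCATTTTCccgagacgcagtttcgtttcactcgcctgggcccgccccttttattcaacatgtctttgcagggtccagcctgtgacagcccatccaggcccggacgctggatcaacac
Ifit3: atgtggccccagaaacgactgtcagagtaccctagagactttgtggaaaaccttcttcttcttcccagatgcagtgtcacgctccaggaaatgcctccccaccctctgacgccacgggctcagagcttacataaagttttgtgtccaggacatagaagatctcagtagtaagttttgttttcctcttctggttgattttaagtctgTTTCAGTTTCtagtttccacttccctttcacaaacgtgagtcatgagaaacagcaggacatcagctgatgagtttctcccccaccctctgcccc
Oas1a: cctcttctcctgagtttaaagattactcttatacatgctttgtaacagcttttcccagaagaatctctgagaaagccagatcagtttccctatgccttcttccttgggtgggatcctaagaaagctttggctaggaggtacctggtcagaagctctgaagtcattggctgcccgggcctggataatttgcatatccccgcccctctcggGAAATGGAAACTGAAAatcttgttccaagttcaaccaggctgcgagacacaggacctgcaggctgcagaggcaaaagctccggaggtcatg
Ifit3, which binds viral RNA with other Ifit proteins, stood at -1.82, -1.53 and -2.61 against -2.67, -3.10 and -2.10, and Oas1a, a sensor of double-stranded RNA, at -0.97, -1.29 and -2.78 against -1.64, -2.99 and -1.88. Both had low replicate 3 arrays in the uninfused group, as Irf7 had. A match describes the letters in the window and is not evidence of binding. Members with a match had a median of -0.33 and those without one -0.38.

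**Figure D4:**
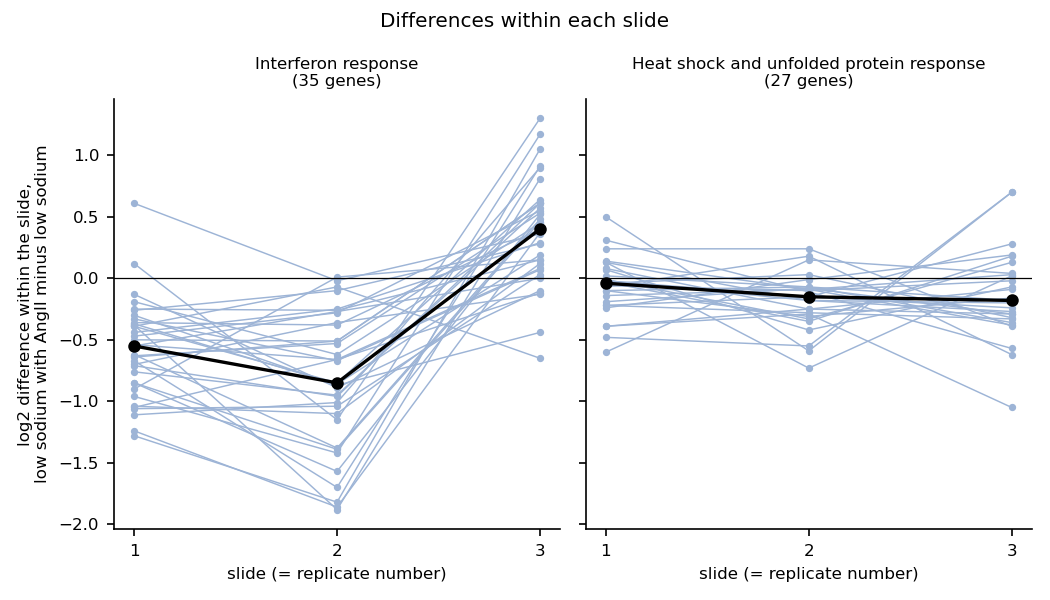
Thin lines join the within-slide log2 difference (low sodium with AngII minus low sodium, vertical axis) of 1 gene over slides 1 to 3 (horizontal axis), and the black line is the list's median. The 35 interferon genes have medians of -0.55, -0.85 and 0.40, and the 27 heat shock and unfolded protein genes have -0.04, -0.15 and -0.18.

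Other immune lists differed in direction. All 8 tested MHC class II genes, which present peptides to helper T cells, were below 0 with a median of -0.12, and none had non-overlapping groups. On normal sodium their median was -0.30, with 2 above 0. Of the complement genes 13 of 18 were below 0 (6085 of 11211 over all genes), and 5 had all infused arrays lower (3.34% of all genes): Cfb (-0.36), C3 (-0.35), C1s (-0.29), C1r (-0.16) and Cd59b (-0.15). C1s, a protease that starts the classical pathway, stood at 1.50, 1.48 and 1.52 against 1.15, 1.38 and 1.10 (-0.29 ± 0.12). Slide medians of the complement list were -0.39, 0.19 and -0.03 and did not share a direction. Inflammatory cytokines and adhesion genes had 11 of 19 above 0 and a median of 0.11. The innate receptors Tlr4 (0.36 ± 0.22) and Tlr2 (0.19 ± 0.14) were higher there without overlap, against 3.46% of all genes. Neutrophil and mast cell markers had 8 of 9 above 0 and a median of 0.24, but slide medians of 0.51, 0.27 and -0.09 and 0 members without overlap. The median was 0.02 without infused replicate 1, 0.05 without replicate 1 in every group and 0.04 without replicate 2.

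Genes of the heat shock and unfolded protein responses leaned lower. Of 27 tested, 24 were below 0, the median was -0.13, 10 were lower on every slide (8.97% of all genes) and 4 had non-overlapping groups (3.34%). On normal sodium 13 of the 27 were above 0. The lean was not general to chaperones: of 42 cytosolic chaperonin and DnaJ genes, a family taken by symbol, 22 were above 0 with a median of 0.0. Hsp90b1, the chaperone Grp94 of the endoplasmic reticulum, stood at 1.87, 1.78 and 1.87 against 1.65, 1.50 and 1.54 (-0.28 ± 0.16), and Hsp90ab1, its cytosolic relative, at 4.33, 4.30 and 4.45 against 4.14, 4.21 and 4.16 (-0.19 ± 0.11). Trib3, a stress-induced pseudokinase, differed by -0.58 ± 0.24, and Hspb8, a small heat shock protein, by -0.13 ± 0.11. Hspa5, the sensor-bound chaperone BiP, named after its values were seen, stood at 4.20, 3.99 and 4.18 against 4.06, 3.90 and 3.80 with overlap. On normal sodium Hsp90b1 (-0.30) and Hspa5 (-0.28) were lower by about as much as here, whereas Hsp90ab1 (0.06), Hspb8 (0.12) and Trib3 (0.37) differed in sign. The endoplasmic reticulum stress element (CCAAT, any 9 bases, CCACG, on either strand), which the stress factors Atf6 and Xbp1 recognise with Nf-y, was in 5 of 23 promoter windows of the list (21.7%) against 0.0765% of all promoters and 0.152% of the 9196 promoters of tested genes. They were those of Hspa5, Hsp90b1, Canx, Xbp1 and Calr. The windows of Hspa5 (GRCr8 chr3:38452766-38453065, plus strand) and Hsp90b1 (chr7:23012244-23012543, minus strand, with 2 matches) show them in capitals.
Hspa5: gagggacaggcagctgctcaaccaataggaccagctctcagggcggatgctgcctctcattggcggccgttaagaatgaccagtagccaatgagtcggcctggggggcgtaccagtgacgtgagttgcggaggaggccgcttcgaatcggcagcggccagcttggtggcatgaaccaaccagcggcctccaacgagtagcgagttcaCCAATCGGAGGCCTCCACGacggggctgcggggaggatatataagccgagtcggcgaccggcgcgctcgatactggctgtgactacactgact
Hsp90b1: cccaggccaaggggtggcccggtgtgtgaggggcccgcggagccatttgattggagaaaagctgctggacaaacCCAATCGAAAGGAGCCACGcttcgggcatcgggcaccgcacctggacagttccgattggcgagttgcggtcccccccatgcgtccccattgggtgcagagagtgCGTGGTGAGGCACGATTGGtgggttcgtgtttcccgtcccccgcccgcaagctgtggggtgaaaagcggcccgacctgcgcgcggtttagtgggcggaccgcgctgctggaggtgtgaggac
Members with the element had a median of -0.15 and those without it -0.14.

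Extracellular matrix genes stood higher, most clearly on slides 1 and 2. Of 29 tested collagens and matrix proteins, 24 were above 0 with a median of 0.16, and 3 had all infused arrays higher (3.46% of all genes). The median was 0.09 without replicate 1 and 0.09 without replicate 2. Slide medians were 0.30, 0.15 and -0.03, and the normal sodium median was 0.31. Bgn, the small proteoglycan biglycan, stood at 3.55, 3.85 and 3.46 against 4.01, 3.96 and 4.00 (0.37 ± 0.13). Col1a2, the second chain of type I collagen, stood at 3.62, 3.87 and 3.44 against 3.92, 4.00 and 4.00 (0.33 ± 0.15). Both had infused arrays above all uninfused ones, as had Col14a1 (0.29 ± 0.16). Col18a1, the basement membrane collagen that yields endostatin (0.49 ± 0.18), and Fmod, the collagen-binding fibromodulin (0.72 ± 0.30), overlapped at 1 array. The main fibrillar chains showed less: Col1a1 stood at 1.48, 1.76 and 1.66 against 1.76, 1.92 and 1.59, and Col3a1 at 3.17, 3.34 and 3.45 against 3.28, 3.31 and 3.43. Col3a1 differed by 0.02 here and by 0.48 on normal sodium (interaction -0.46 ± 0.17).

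Genes that process collagen did not follow in 1 direction. P4ha2, a prolyl hydroxylase of procollagen, stood at 0.32, 0.33 and 0.24 against 0.01, -0.09 and 0.07 (-0.30 ± 0.12), and Serpinh1, the collagen chaperone Hsp47, at 3.52, 3.56 and 3.36 against 3.09, 3.12 and 3.21 (-0.34 ± 0.21). Both were lower on every infused array, whereas Loxl1, which crosslinks elastin, was higher without overlap (0.29 ± 0.22), as was Tgm2, tissue transglutaminase (0.10 ± 0.13). In the TGF-beta and profibrotic list 12 of 22 were above 0 and 4 had non-overlapping higher groups (3.46% of all genes). Ltbp2, a latent TGF-beta binding protein of microfibrils, stood at -4.56, -4.15 and -4.33 against -3.23, -4.13 and -3.79 (0.63 ± 0.20), and differed by 1.01 on normal sodium. Smad7, the inhibitory Smad that TGF-beta itself induces, stood at 0.62, 0.47 and 0.56 against 0.88, 0.73 and 0.95 (0.31 ± 0.13). Lgals3, galectin-3, differed by 0.33 ± 0.17 and Ccn5, a matricellular protein, by 1.11 ± 0.52. Tgfb1, the ligand, differed by -0.19 ± 0.26 with overlap. Of the matrix proteases and inhibitors, 10 of 18 were above 0, with no non-overlapping member.

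Markers of cardiac growth and stress did not separate the groups. Of 14 tested members 6 were above 0 (median -0.02, against 0.36 on normal sodium) and none had non-overlapping groups. Nppa, which encodes atrial natriuretic peptide, stood at -0.07, 0.07 and -1.39 on low sodium and at 1.76, 0.22 and -0.83 with AngII, higher in the infused array of each slide but with ranges that overlap (0.85 ± 0.82). Its 95% interval reached from -0.97 to 2.66. The atrial markers Myl7 and Sln ranged from -3.89 to 0.17 and from -1.66 to 2.13 over the 6 arrays. The sum of the 3 atrial markers tested is nearly all Myl4, whose level reached 7.10, and says little about Myl7 and Sln. It ran from 6.79 to 7.05 on low sodium and from 6.89 to 7.11 with AngII, and the median difference of the 3 was 0.09. The part of atrial tissue in the Nppa values was not tested. Nppb, the B-type peptide, stood at 3.44, 3.56 and 2.81 against 3.69, 3.26 and 3.45 (0.20 ± 0.35), and Acta1, skeletal actin, at 4.04, 4.21 and 4.42 against 5.12, 4.47 and 4.38 (0.43 ± 0.31). Myh7, the slow myosin heavy chain, differed by -0.04 ± 0.14. Adult contractile genes had 7 of 16 above 0, all within -0.23 to 0.11, and all 16 were above 0 on slide 1 and 15 below 0 on slide 3. In the calcium list 7 of 19 were above 0, and Hrc, the histidine-rich calcium-binding protein of the sarcoplasmic reticulum, stood lower without overlap (-0.17 ± 0.12). Hrc was the only such member, against 3.34% of all genes.

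Genes of the renin-angiotensin system itself did not separate the groups as a set. Of 15 tested, 5 were above 0, 0 had an unadjusted p under 0.05, and the median was -0.01. Agt, the precursor, stood at -4.47, -4.15 and -4.58 against -4.36, -4.67 and -5.11 (-0.31 ± 0.24), and Ace at -1.33, -1.45 and -1.35 against -0.67, -1.27 and -1.50 (0.23 ± 0.18). Agtr1a, the type 1 receptor, stood at -3.19, -3.22 and -3.29 against -3.15, -3.12 and -3.44, with an interval of -0.26 to 0.26. Atp6ap2, the prorenin receptor, was the 1 member of 15 that stood lower without overlap, against 3.34% of all genes. Its difference was -0.20 ± 0.17, with an unadjusted p of 0.255 (limma). Downstream, 26 of 35 genes of AngII receptor signalling were below 0, with a median of -0.06 and none without overlap. Among 10 NADPH oxidase subunits, 7 were below 0 and Ncf1 alone had non-overlapping groups (3.34% of all genes were lower without overlap). Cybb, its membrane partner gp91phox, stood at -4.75, -5.31 and -4.48 against -5.09, -5.14 and -4.86. Of 27 antioxidant genes 19 were below 0 (median -0.09), and Prdx3, the mitochondrial peroxiredoxin, was the 1 without overlap (-0.13 ± 0.11). That is near the 3.34% of all genes and is no result about the list. In the corticosteroid list 11 of 19 were above 0, and Nr3c2, the mineralocorticoid receptor, stood higher without overlap by only 0.07 ± 0.14 (3.46% of all genes were higher without overlap).

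**Figure D5:**
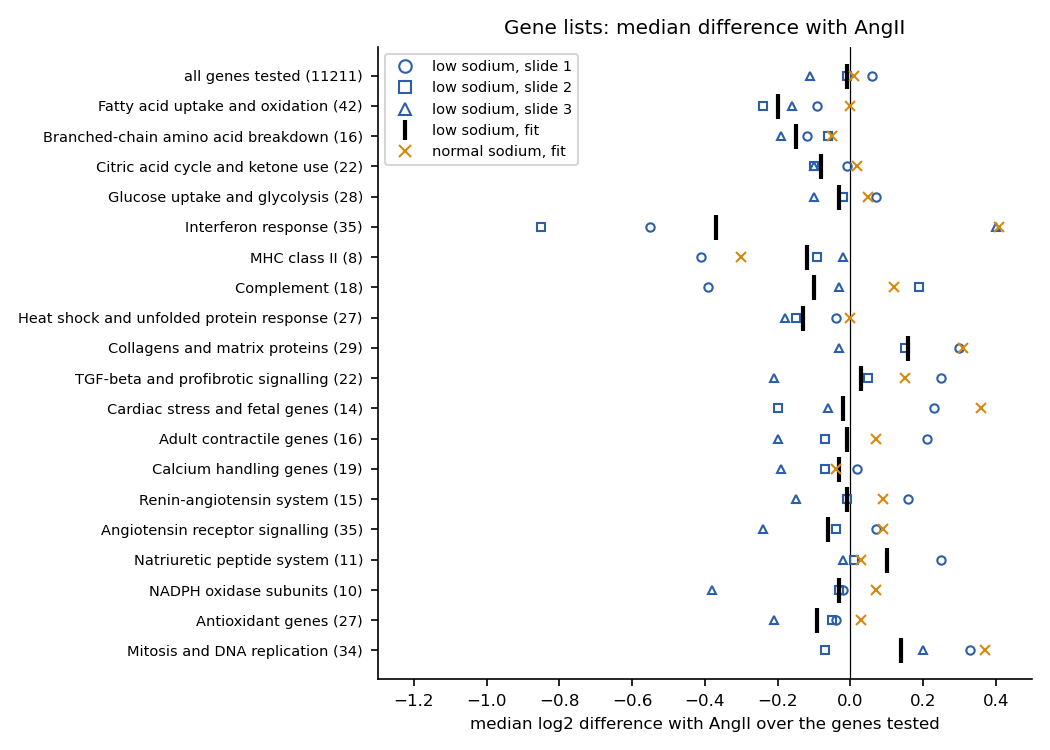
Rows are gene lists with the number of genes tested, and the horizontal axis is the median log2 difference with AngII. Open symbols are the 3 slides on low sodium, the black bar the low sodium fit and the cross the normal sodium fit: fatty acid genes lie below 0 on all slides, and interferon genes reach from -0.85 to 0.40.

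Signalling and timing genes differed one by one. Egr1, the immediate early zinc finger factor, stood at 0.53, -1.78 and -1.13 against -1.78, -1.76 and -3.00 (-1.38 ± 0.59). Low sodium replicate 1 was the highest array, and without it the difference was -0.72. Egr2, its relative, had the same high array, at -2.65, -5.64 and -5.81 against -5.91, -6.01 and -6.29, and its difference without that array was -0.35. Zfp36, which destabilises mRNAs rich in AU, was lower without overlap (-0.47 ± 0.59), and the immediate early list as a whole had 10 of 24 above 0. Bmal1, the core activator of the circadian clock, stood at 1.25, 1.02 and 1.31 against 0.95, 0.60 and 0.90 (-0.37 ± 0.16), and Nfil3, a clock output repressor, at 0.14, -0.25 and -0.01 against -0.76, -0.98 and -0.37 (-0.66 ± 0.28). Adm, the vasodilator peptide adrenomedullin, stood at 0.51, 0.59 and 0.32 against 0.82, 0.74 and 1.03 (0.39 ± 0.13), while 11 of 15 hypoxia genes were below 0, of which Egln3, a prolyl hydroxylase of the hypoxia-inducible factor, did not overlap (-0.23 ± 0.19).

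Across the 50 families taken by gene symbol, medians ran from -0.14 (5 claudins, tight junction proteins) to 0.14 (18 collagen genes). Zinc finger proteins, a large class of transcription factors, had 101 of 159 members below 0 with a median of -0.04. Glutathione transferases, which detoxify electrophiles, had 17 of 21 below 0 (median -0.10) and proteasome subunits 26 of 36 (median -0.04). Solute carriers, the membrane transporters, had 127 of 224 below 0 (median -0.02), close to the share over all genes.

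Cell division genes had 27 of 34 above 0 (median 0.14, slides 0.33, -0.07 and 0.20), and all 34 were above 0 on normal sodium. Tyms, thymidylate synthase (0.46 ± 0.34), and Tk1, thymidine kinase (0.13 ± 0.17), were the members without overlap, against 3.46% of all genes. Of the cardiac transcription factors 12 of 16 were below 0. Hand2, a basic helix-loop-helix factor of the ventricle and of fibroblasts, stood at -0.87, -0.95 and -0.75 against -1.08, -1.27 and -1.48 (-0.42 ± 0.18) and differed by 0.66 on normal sodium (interaction -1.08 ± 0.26). Tbx20, a T-box factor of the heart, was lower without overlap too (-0.31 ± 0.21), against 3.34% of all genes. Cacna1h, a T-type calcium channel, differed by 0.66 ± 0.35 without overlap.

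The tissue matched its label as heart muscle. Of the 3 atrial markers tested, Myl4 was by far the brightest (up to 7.10). It made up nearly all of their sum, which ran from 6.79 to 7.11 over both groups. All 10 defining cardiomyocyte markers were tested, and they differed by -0.22 to 0.06 between the groups. The defining markers of fibroblasts (5 of 6 tested) differed by -0.23 to 0.12, those of endothelium (5) by -0.08 to 0.08 and those of macrophages (5) by -0.04 to 0.28. The 4 neutrophil and mast cell markers were 0.20 to 0.39 higher, their summed level running from -2.37 to -1.48 on low sodium and from -1.75 to -1.72 with AngII. None of the 3 adipocyte markers was among the genes tested. The summed fibroblast markers ran from 4.67 to 4.85 and from 4.69 to 4.94, and their part in the matrix differences was not tested. The summed cardiomyocyte markers ran from 10.63 to 10.81 and from 10.50 to 10.83, and their part in the fatty acid differences was likewise not tested.

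Whether these differences belong to the low sodium diet rests on the interaction, since the normal sodium comparison shares no array with this one, although it shares the slides. No probe passed for the interaction (0 of 20020, limma), whose smallest adjusted p was 0.51, and 1014 (5.06%) had an unadjusted p under 0.05. For AngII on normal sodium 0 probes passed and 1453 (7.26%) had an unadjusted p under 0.05, while 6 of 18 alternatives called 3 to 9 probes there. None of the single differences above is therefore shown to depend on the diet.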

How the data were processed

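RNA of 12 left ventricle samples was hybridised to one-colour (Cy3) Agilent arrays, 3 per group. Per the file headers, the processed signals are intensities from Feature Extraction 10.7.3.1, background-subtracted within each array with no scaling between arrays, and the deposited files hold other columns of 0 or 1 flags for spots well above background. The submitters' processing notes name Feature Extraction 11.0.1.1, R 3.3.04 and limma. The authors' deposited matrix holds log2 values, whose normalization between arrays is not given in the sources used here, and was an alternative.

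Control and outlier spots were left out. The log2 processed signal minus the 75th percentile of its array was averaged over the spots of a probe. A probe was tested if well above background on all arrays of at least 1 group (20020 of 30367 probes). Symbols came from RefSeq (GRCr8), for 13280 tested probes, and a gene took its brightest tested probe. The package limma 3.58.1 (R 4.3.3, files read with data.table version 1.17.8) gave 1 mean per group over the 12 arrays. The residual degrees of freedom were 8, with 2.61 more from the variance prior, and p-values were adjusted by Benjamini-Hochberg across every probe tested. The script was tested on simulated data. A p thus measures spread between 3 arrays a group, whose number limits the precision.

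There were 51 gene lists (877 genes tested) and 50 symbol families. The comparison, members and lists were chosen with earlier results of these data known, and lists are described by counts and medians with no test. Genes were named from the 12 with the smallest p and the 8 with the largest non-overlapping differences each way, up to 4 members with the smallest p and the non-overlapping members of a list described, a fixed set of cardiac genes, and cell markers. Families are given by counts and medians, and some genes that rule takes are not reported here. Genes outside that rule are said to have been chosen after their values were seen. Alternatives covered background correction, scaling, dim probes, the model and leaving out arrays.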

Additional observations from a re-analysis of the deposited data

How the results depend on the processing

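The alternatives covered background correction, scaling, the filter on dim probes, the model and leaving out arrays, and no probe was called higher with AngII on low sodium, or for the interaction, under any of them. With the 6 low sodium arrays alone in the fit, 2 probes were called lower (Serhl2 and Cyp2d1), and with the replicate block on those 6 arrays, an alternative chosen after seeing the data, 3 were (Cyp2d5 as well). Of these, Serhl2 alone was well above background in both groups, and the others passed the brightness filter only through uninfused groups, where they were higher. In the fit on all 12 arrays the replicate block left 0 calls, with 217 probes higher and 243 lower at an unadjusted p under 0.05, against 176 and 166. Same-numbered arrays deviated together at r = 0.351, 0.119 and 0.046 for numbers 1, 2 and 3, against -0.244 to 0.144 for arrays of unlike number. Number 1 thus stood apart from the unlike pairs and numbers 2 and 3 did not. The main fit took no pairs, and the replicate block is given as an alternative. The higher count became 567 with array weights and 147 to 332 with arrays or replicates left out. The lower count became 84 with normexp correction, 100 in the authors' matrix, 674 with array weights, 288 with the block on 6 arrays and 132 to 507 with arrays or replicates left out. Without infused replicate 1 it was 441, and without replicate 1 in every group it was 507.

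Of 123 genes named with values, 114 kept their sign under all alternatives that gave a value. Array weights turned Agtr1a (0.05), Myl7 (0.04), Nppb (-0.01) and Tgfb1 (0.11), and quantile normalization put Agtr1a at 0.00. Leaving out arrays or replicates turned the sign somewhere within these ranges: Ace -0.01 to 0.42, Agtr1a -0.06 to 0.10, Col3a1 -0.06 to 0.08, Myh7 -0.17 to 0.07, Myl7 -2.59 to 0.57, Nppb -0.03 to 0.44, Oas1a -1.19 to 0.12, Sln -1.39 to 1.26 and Tgfb1 -0.51 to 0.26. The cause was not tested. Over all alternatives the list medians ran from -0.23 to -0.15 for fatty acid genes, from -0.59 to -0.09 for interferon genes, from -0.19 to -0.08 for heat shock genes and from 0.08 to 0.22 for matrix genes. Signals near background limit the dimmest genes. Their differences shrank under normexp correction, but its offset of 50 intensity units shrinks the differences of dim probes in any case. That shrinkage therefore does not tell whether a dim difference came from the background.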

Other observations

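Sterol and quality-control genes outside the groups described above also leaned by small amounts. Of 18 tested genes of cholesterol synthesis, 13 were above 0 on low sodium (median 0.05) and 5 were above 0 on normal sodium (median -0.12). Stard4, which carries cholesterol between membranes, stood at -0.79, -0.56 and -0.74 without AngII and at -0.38, -0.21 and -0.42 with it (0.36 ± 0.16). Every infused array was higher, as it was for Sqle, squalene epoxidase (0.31 ± 0.32), and Cyp51, the lanosterol demethylase (0.20 ± 0.14). Over all genes 3.46% had all infused arrays higher. Of 23 genes of autophagy and the atrophy ligases, 18 were below 0 (median -0.09). Pink1, the kinase that marks damaged mitochondria, stood at 5.52, 5.61 and 5.53 against 5.36, 5.44 and 5.26 (-0.20 ± 0.12), and Fundc1, a receptor for mitophagy, differed by -0.28 ± 0.18, both without overlap (3.34% of all genes).

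Single genes of immune cells differed in both directions, and their lists differed between slides. Trem2, a lipid-sensing receptor of macrophages, stood at -1.49, -1.62 and -1.22 against -1.01, -0.62 and -0.96 (0.58 ± 0.22), and the median over 20 macrophage genes was 0.01, with slide medians of -0.29, 0.45 and -0.20 and with -0.20 without replicate 2. Cd3g, a chain of the T cell receptor complex, stood at -3.85, -4.83 and -4.02 against -3.78, -3.38 and -3.62 (0.64 ± 0.25). Il2rb, the interleukin-2 receptor chain of killer and T cells, stood lower at -1.40, -1.66 and -1.74 against -1.09, -1.02 and -1.13 without AngII (-0.52 ± 0.19). The median over 15 lymphocyte genes was -0.05, with slide medians of -0.34, 0.33 and -0.27 and with -0.35 without replicate 2, and none of these genes passed adjustment.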
